A study of Mus musculus with 12 samples.

Results

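The 8 genes described here, Gbp2, Gbp3, Gbp4, Gbp5, Gbp6, Gbp7, Gbp8 and Gbp9, encode guanylate-binding proteins (GBPs). They were taken by symbol from the 24421 genes that each of 12 mouse RNA-seq libraries lists, and all 8 symbols were present in each library. Bone marrow macrophages (BMMs) were grown from flushed marrow of C57BL/6 mice for 3 days with M-CSF, the growth factor of the macrophage lineage. The loss of function experiment used Mir182+/+LysMcre(+) cells, labelled WT, and Mir182flox/floxLysMcre(+) cells, labelled Mir182ΔM/ΔM, each without RANKL (basal) and after 5 days with RANKL, the cytokine that drives macrophages to become osteoclasts. The gain of function experiment used basal BMMs of LysMcre(+) mice, labelled Control, and LSL-Mir182LysMcre(+) mice, labelled Mir182mTg, in which Cre removes a stop cassette before a Mir182 transgene at the Rosa26 locus. Every group therefore carries LysMcre, a Cre under the lysozyme M promoter that acts in myeloid cells and not in these macrophages alone. The methods describe sex- and age-matched littermates and the labels give no ages. Each of the 6 conditions has 2 libraries, called biological replicates in the methods with no mention of separate mice, so p-values measure the spread between these libraries, which may be technical.

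GBPs are large GTPases of the dynamin superfamily that interferons induce in macrophages. They assemble on membranes of vacuoles that hold parasites or bacteria and on bacterial surfaces, help to break them open, and promote inflammasome activation. Interferon-γ acts on their promoters through IRF1 among other factors, and type I interferon through a complex that holds STAT2 and IRF9. In the mouse the genes stand in a cluster on chromosome 3 and another on chromosome 5.

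Total reads on genes were between 24951280 and 33050619 per library. Levels are given as CPM, the reads of a gene scaled to the total of its library, and 3 reads, taken as the floor, were worth 0.0908 to 0.12 CPM. The floor covers counting error only. Macrophage markers were high in each library, with 5907 to 13520 CPM summed over 7 genes with Lyz2 among them, while the 5 erythroid markers were listed at 0 and the summed T and NK cell and B cell markers did not exceed 0.756 and 0.306 CPM. Neutrophil markers summed to 5.59 to 113 CPM, dendritic cell markers to 6.51 to 23.2 and stromal markers to 1.45 to 36.7. Mir182 was at 0 in the WT and Control libraries, at 0 or 1 read in the Mir182ΔM/ΔM libraries, and at 2.39 and 4.40 CPM in Mir182mTg. It therefore marked the transgene and gave no check of the deletion.

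The 2 WT RANKL libraries were unlike the remaining loss of function libraries in a few genes, and this bears on each comparison that uses them. Lyz2, the lysozyme M gene, into which the LysMcre allele is inserted, was at 4117 and 4288 CPM in WT RANKL, between 5783 and 7062 in the gain of function libraries, and between 22.5 and 44.0 in the other 6 loss of function libraries. Ifi202b, an interferon-inducible gene, was read with Lyz2 as a check of which mice the libraries came from. It was at 1.12 and 0.972 CPM in WT RANKL and at or below 0.0908 in the gain of function libraries. In the other 6 loss of function libraries it was between 82.1 and 152 CPM. Gbp2b, the GBP gene between Gbp3 and Gbp2 on chromosome 3, which is not among the 8, was at 7.80 and 4.73 CPM in WT basal and 5.91 and 4.61 in WT RANKL, but at 0 in both Mir182ΔM/ΔM basal libraries and at 0.0328 and 0.197 after RANKL. In Control it was at 3.89 and 3.06 CPM, and in Mir182mTg at 4.72 and 3.19 CPM. Differences of mouse origin between the groups were not tested. They cannot be told apart from genotype in Mir182ΔM/ΔM RANKL against WT RANKL, from RANKL in WT RANKL against WT basal, or from either in the interaction. Gbp2b differs between the genotypes at baseline too, so the same limit holds there.

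**Figure D1:**
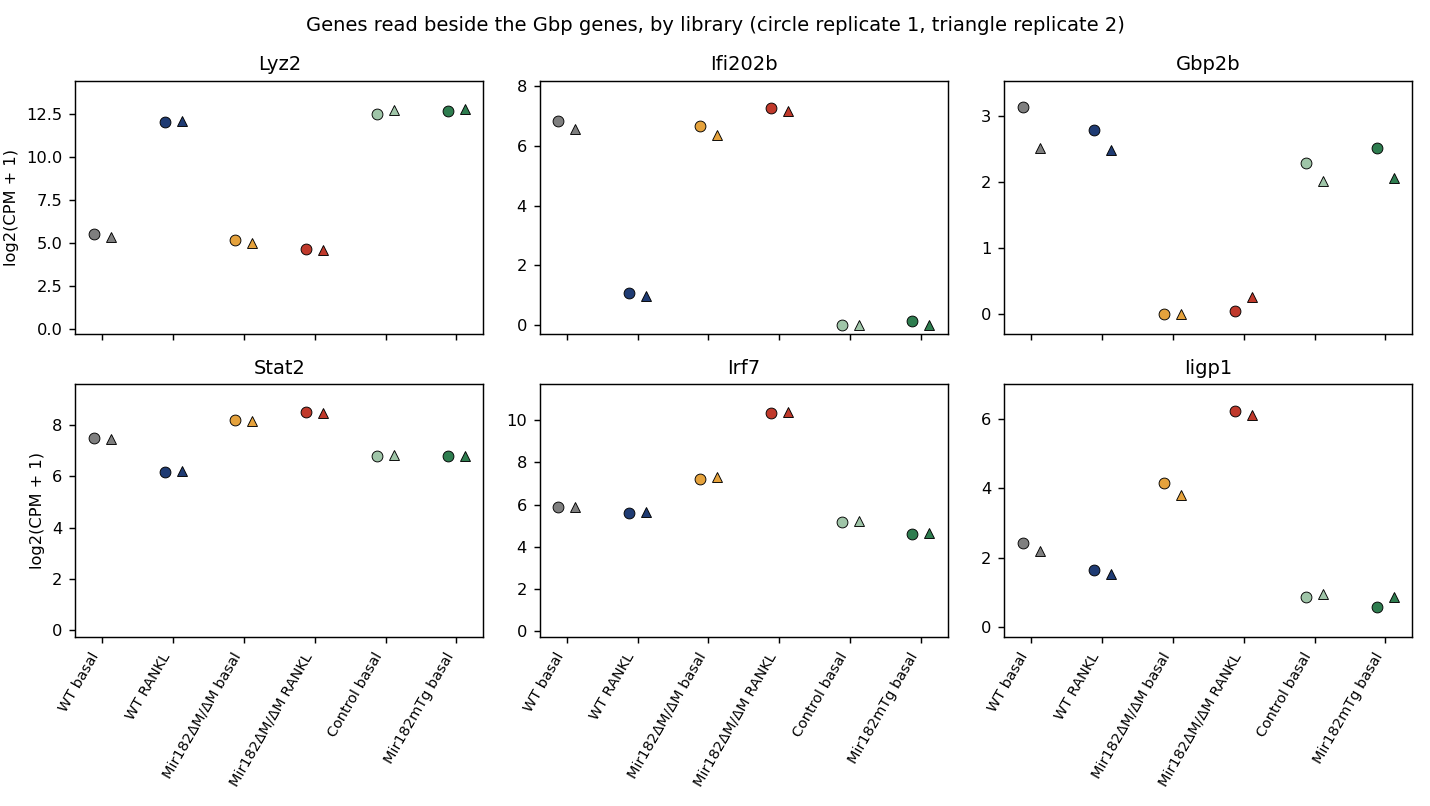
log2(CPM + 1) of 6 genes read beside the GBP genes, on the y axis, in each library (circle, replicate 1; triangle, replicate 2) of the 6 conditions on the x axis. Lyz2 is high and Ifi202b low in WT RANKL, Control and Mir182mTg, Gbp2b is near 0 only in the Mir182ΔM/ΔM libraries, and Stat2, Irf7 and Iigp1 are highest in Mir182ΔM/ΔM RANKL.

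Among the chromosome 3 genes, Gbp2, a GBP that is anchored to membranes by a lipid tail and needed for control of Toxoplasma, gave the highest GBP level in the series. Its gene lies at chr3:142620602-142638008 on the plus strand (GRCm38, GENCODE vM21). Gbp2 was at 19.0 and 15.4 CPM in WT basal (replicates 1 and 2), 12.5 and 13.0 in WT RANKL, 30.5 and 26.8 in Mir182ΔM/ΔM basal, 172 and 161 in Mir182ΔM/ΔM RANKL, 10.02 and 7.37 in Control and 8.38 and 8.34 in Mir182mTg. It was lower in WT RANKL than in WT basal, and the pairs of libraries of neighbouring conditions overlapped only between Control and Mir182mTg.

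Gbp3, at chr3:142560026-142573209, was at 8.71 and 9.86 CPM in WT basal, 21.0 and 16.5 in WT RANKL, 16.4 and 16.0 in Mir182ΔM/ΔM basal and 113 and 103 in Mir182ΔM/ΔM RANKL. Its values were 7.15 and 6.69 CPM in Control and 6.29 and 5.66 in Mir182mTg. The Mir182ΔM/ΔM RANKL libraries stood above all others, and the next condition, WT RANKL, lay just above Mir182ΔM/ΔM basal.

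Gbp5, which has been tied to inflammasome activation and also carries a lipid tail, lies at chr3:142493978-142522344. It was at 5.197 and 4.61 CPM in WT basal, 8.74 and 7.09 in WT RANKL, 7.70 and 7.72 in Mir182ΔM/ΔM basal, 52.8 and 49.7 in Mir182ΔM/ΔM RANKL, 1.69 and 1.51 in Control and 1.33 and 1.25 in Mir182mTg. WT RANKL and Mir182ΔM/ΔM basal overlapped, and no other neighbouring conditions did.

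Gbp7, linked to assembly of the phagocyte oxidase, lies at chr3:142530342-142550149. It was at 33.3 and 27.7 CPM in WT basal, 64.4 and 56.8 in WT RANKL, 41.3 and 35.5 in Mir182ΔM/ΔM basal and 129 and 118 in Mir182ΔM/ΔM RANKL, against 9.26 and 7.22 in Control and 8.08 and 7.27 in Mir182mTg. Of the 8 genes it had the highest level per kilobase in WT RANKL, 10.8 ± 0.953 CPM per kb (SD, n = 2), next to Gbp9 at 10.1 ± 0.963, and the libraries of these 2 genes overlapped.

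**Figure D2:**
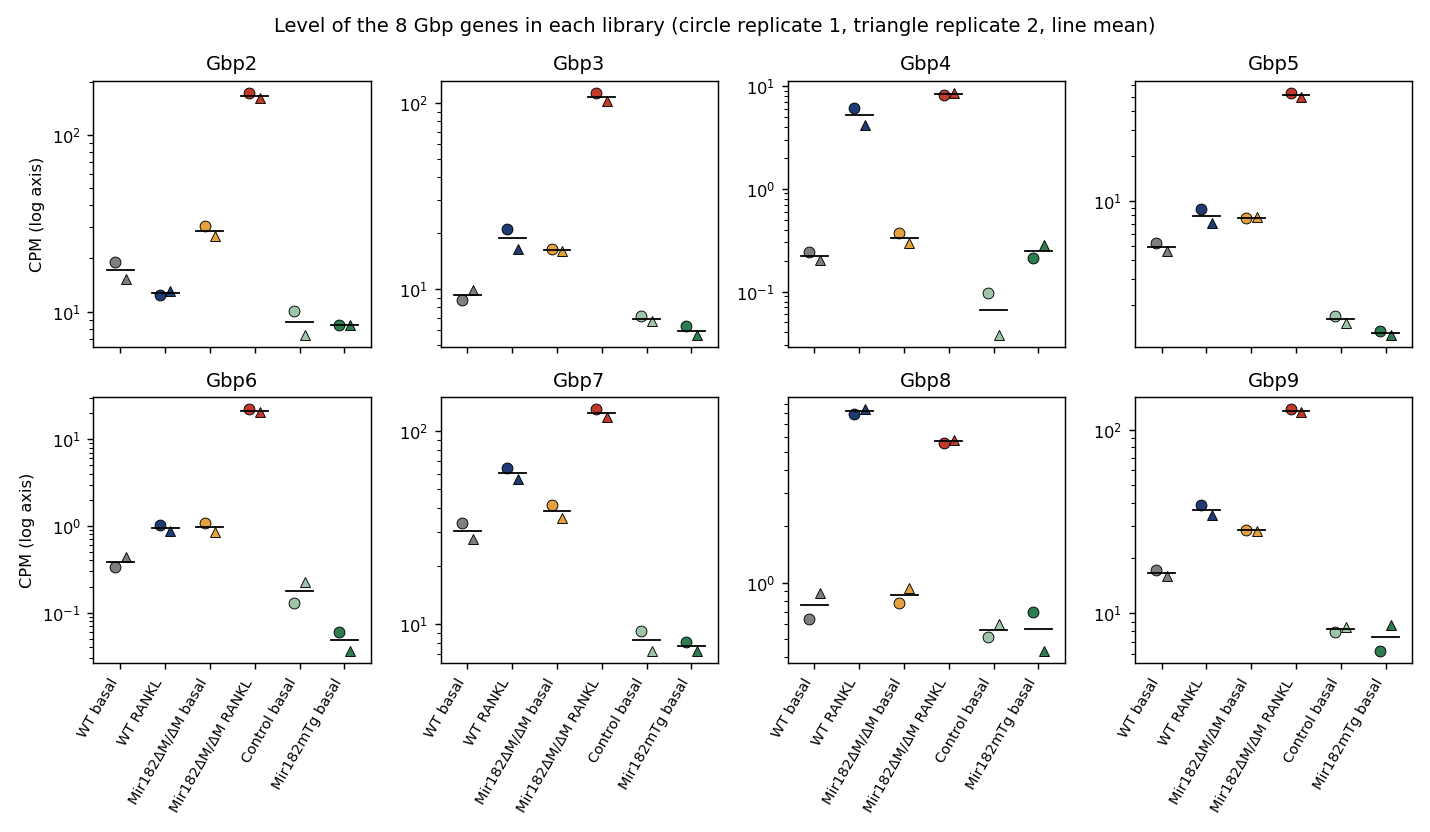
CPM of each of the 8 genes on a log axis against the 6 conditions (circle, replicate 1; triangle, replicate 2; line, mean of 2 libraries). Mir182ΔM/ΔM RANKL is the highest condition in 7 panels, for example at 172 and 161 CPM for Gbp2, and Gbp8 is the exception, with WT RANKL at 7.98 and 8.39 CPM above Mir182ΔM/ΔM RANKL at 5.55 and 5.78 CPM.

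The chromosome 3 genes with RefSeq upstream sequence here (GRCm38.p6) are these same 4, and none was at hand for the 4 genes of chromosome 5. They are shown because interferons act on GBP genes through sites in such sequence. These 4 genes were higher in Mir182ΔM/ΔM RANKL than in WT RANKL, while RANKL in WT cells lowered Gbp2 and raised the other 3. Of the chromosome 5 genes, Gbp4, Gbp6 and Gbp9 were also higher in Mir182ΔM/ΔM RANKL and Gbp8 was lower. A part of the sites below in any of these differences was not tested. The 250 bases before the RefSeq start were searched on both strands for GAAANNGAA, the core of an interferon-stimulated response element (ISRE), and for TTCNNNGAA, a gamma-activated site (GAS). An ISRE match stood in 4 of 4 of these genes and in 7.13% of 32851 mouse promoters, a GAS match in 2 of 4 and in 7.02%, and both in 2 of 4 and in 0.752%. The sequences run 5′ to 3′ on the plus strand, stop short of annotated exons, and have the matches in capitals.
Gbp3, chr3:142559794-142560025: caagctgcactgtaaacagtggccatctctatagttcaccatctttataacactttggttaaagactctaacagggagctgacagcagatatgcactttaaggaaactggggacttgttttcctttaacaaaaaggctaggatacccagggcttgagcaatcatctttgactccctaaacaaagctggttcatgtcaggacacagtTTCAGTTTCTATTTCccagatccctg
Gbp5, chr3:142496684-142496899: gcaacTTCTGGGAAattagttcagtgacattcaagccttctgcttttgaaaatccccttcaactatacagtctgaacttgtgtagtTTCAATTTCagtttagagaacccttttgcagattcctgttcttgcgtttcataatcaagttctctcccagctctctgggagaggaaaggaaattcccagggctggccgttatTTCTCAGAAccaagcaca
Gbp7, chr3:142530086-142530335: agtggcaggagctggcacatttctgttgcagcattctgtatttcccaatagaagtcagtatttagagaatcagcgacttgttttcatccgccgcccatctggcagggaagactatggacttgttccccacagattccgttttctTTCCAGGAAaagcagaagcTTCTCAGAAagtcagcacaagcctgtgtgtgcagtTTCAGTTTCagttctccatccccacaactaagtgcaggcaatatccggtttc
In Gbp3 the capitals are 2 overlapping ISRE matches at bases -44 to -36 and -38 to -30 from the start. In Gbp5 they are a GAS match, an ISRE match and a second GAS match, in a stretch that lies in an intron of the longer GENCODE gene model. In Gbp7 they are 2 GAS matches and an ISRE match at bases -52 to -44. The ISRE match of Gbp2, TTCACTTTC at chr3:142620605-142620613, lies past the GENCODE start of that gene, so its upstream sequence is not printed. A match is a description of letters and not evidence of binding.

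On chromosome 5 the gene models of Gbp8 (chr5:105014150-105139540), Gbp9 (chr5:105077630-105139539) and Gbp4 (chr5:105115767-105139586) overlap on the minus strand, and Gbp6 lies at chr5:105270702-105293698. Because the genes are near copies, reads can be shared. Of the 50-base words of the longest coding transcript, 70.3% of Gbp6, 21.2% of Gbp8, 12.8% of Gbp4 and 9.56% of Gbp9 also occur in transcripts of other listed genes, against 4.79% or less for the 4 chromosome 3 genes. By this measure values of Gbp6 are the least certain, since 62.3% of its words recur in Gbp10, which was at 0 in 11 of 12 libraries and at 1 read in the other. The transcript used for Gbp6 has 2604 bases, while the gene length in the deposited values is 4.316 kb. For Gbp9 these are 4381 bases and 3.633 kb, so shares of the counted sequence may differ.

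Gbp9 was at 17.2 and 16.0 CPM in WT basal, 39.0 and 34.1 in WT RANKL, 28.5 and 28.0 in Mir182ΔM/ΔM basal, 129 and 125 in Mir182ΔM/ΔM RANKL, 7.92 and 8.43 in Control and 6.203 and 8.59 in Mir182mTg. Its order of conditions was that of Gbp3 and Gbp7. Gbp6 was near the bottom of its range outside a single condition, at 0.336 and 0.441 CPM in WT basal, 1.04 and 0.864 in WT RANKL and 1.07 and 0.858 in Mir182ΔM/ΔM basal, and at 22.0 and 20.8 in Mir182ΔM/ΔM RANKL. It was at 0.128 and 0.227 CPM in Control and at 2 reads and 1 read in the Mir182mTg libraries, under the floor.

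Gbp4 and Gbp8 were low members, under 1 CPM in each basal library and between 4.17 and 8.50 CPM in each RANKL library. Gbp4 was at 0.245 and 0.200 CPM in WT basal, 6.15 and 4.17 in WT RANKL, 0.370 and 0.299 in Mir182ΔM/ΔM basal and 8.18 and 8.50 in Mir182ΔM/ΔM RANKL, with 3 reads and 1 read in the Control libraries and 7 and 8 reads in Mir182mTg. Gbp8 was at 0.642 and 0.882 CPM in WT basal, 7.98 and 8.39 in WT RANKL, 0.777 and 0.933 in Mir182ΔM/ΔM basal and 5.55 and 5.78 in Mir182ΔM/ΔM RANKL, with 0.511 and 0.605 in Control and 0.696 and 0.430 in Mir182mTg. Gbp8 was thus the only member whose highest condition was WT RANKL, and its 4 basal conditions overlapped from neighbour to neighbour.

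Mir182ΔM/ΔM cells after RANKL were compared with WT cells after RANKL to ask how GBP RNA differed once the cells had been driven toward osteoclasts. Of the 8 members, 7 were higher and Gbp8 was lower. Gbp2 differed by a log2 fold change of 3.61 ± 0.12 (SE, adjusted p = 1.7e-06, limma on log2(CPM + 1)), Gbp6 by 3.52 ± 0.11 and Gbp5 by 2.56 ± 0.12. The differences of Gbp3, Gbp9 and Gbp7 were 2.47 ± 0.13, 1.77 ± 0.09 and 1.02 ± 0.12, with adjusted p of 0.00056 or less. The smallest were Gbp4, at 0.62 ± 0.15 (adjusted p = 0.0152), and Gbp8, at -0.46 ± 0.11 (adjusted p = 0.0119). On this scale the folds of low genes such as Gbp6 are understated.

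Higher calls took 14.3% and lower calls 30.9% of the 11691 genes tested, against 7 of 8 members higher and 1 of 8 lower. With TMM scaling, which moved the median difference of all genes by 0.14 on the log2 scale, the calls over all genes were 2438 higher and 2362 lower in place of 1668 and 3607. The median of the members was 2.12 and that of all genes -0.15. Within replicate 1 the log2 ratio of Gbp2 was 3.68 and within replicate 2 it was 3.53, and those of Gbp8 were -0.46 and -0.47. Gbp4 was not called without Mir182ΔM/ΔM RANKL replicate 1 (adjusted p = 0.0566), without replicate 2 of that group (0.0699) or without WT RANKL replicate 2 (0.0623). Gbp8 was not called with TMM (adjusted p = 0.0509) or quantile scaling (0.13), with a pseudocount of 0.1 (0.0539), by edgeR on the recovered reads (0.0744), without Mir182ΔM/ΔM RANKL replicate 1 (0.0609) or without WT RANKL replicate 2 (0.068). The other 6 members kept their call under each alternative tried.

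This comparison rests on the WT RANKL libraries, whose Lyz2 and Ifi202b levels are given above, and cannot be made without them. The 8 osteoclast markers summed to 10550 to 10760 CPM in WT RANKL and to 3155 to 3183 in Mir182ΔM/ΔM RANKL. The sums were 116 to 168 in the basal libraries, where Calcr was at 0. Of the 8 markers 7 were called lower in Mir182ΔM/ΔM RANKL, against 30.9% of all genes. Calcr was not, with a log2 fold change of -0.002 ± 0.094 (SE, limma, adjusted p = 0.991). Neutrophil markers were called lower in 5 of 6 tested. Of 7 macrophage markers 2 were called higher (Fcgr1 2.97 and Adgre1 0.74 on the log2 scale), against 14.3% of all genes. Another 2 were called lower (Lyz2 -7.44 and Csf1r -0.51), against 30.9%. Fewer osteoclasts and less RNA of the osteoclast markers in each osteoclast cannot be told apart in bulk RNA. The part of any of these markers in the GBP differences was not tested. Set beside the basal Control libraries, which were also high in Lyz2, the summed level of the 8 genes was 34.4 ± 3.32 CPM (SD, n = 2) in Control and 150.8 ± 14.1 in WT RANKL, with no test across the separate tables.

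**Figure D3:**
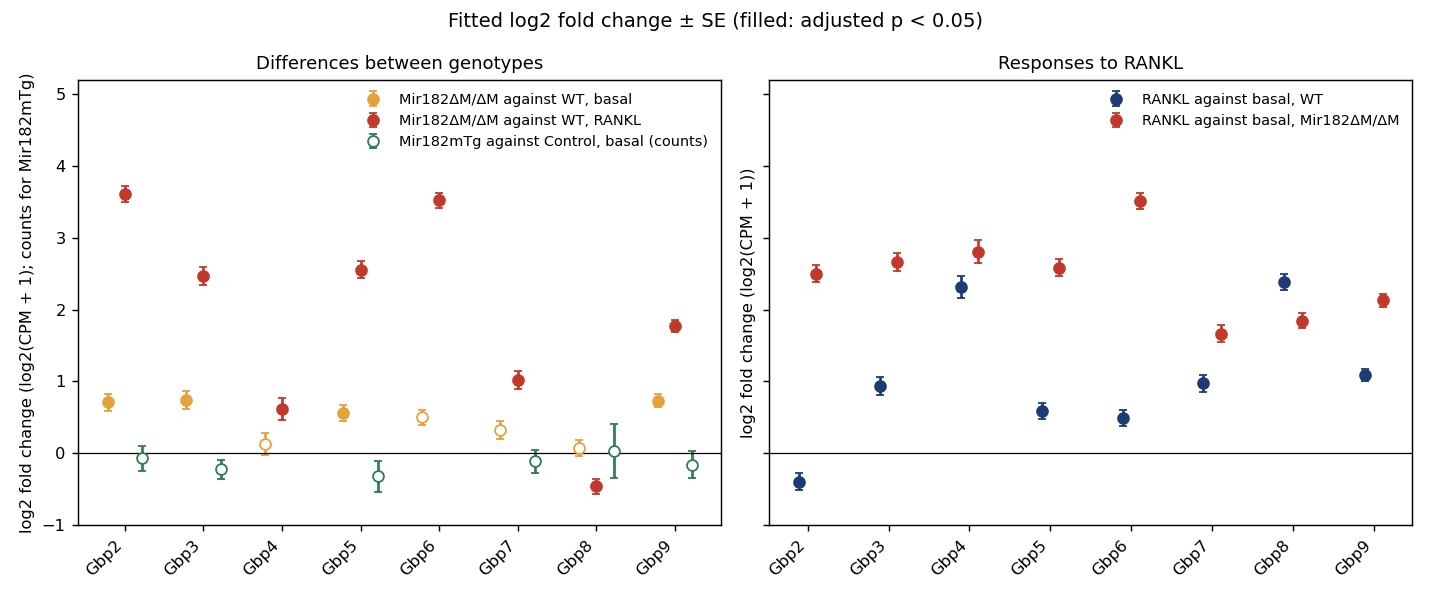
Fitted log2 fold change with its SE for each member (x axis), between genotypes on the left and between RANKL and basal cells on the right; filled points passed an adjusted p of 0.05. Gbp2 and Gbp6 show the largest genotype differences after RANKL, 3.61 and 3.52, and the responses of Gbp2 to RANKL point in opposite directions, -0.40 in WT and 2.50 in Mir182ΔM/ΔM cells.

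At baseline, before RANKL, 4 of the 8 members were higher in Mir182ΔM/ΔM than in WT cells and the other 4 did not pass the test, and WT RANKL enters this comparison only through the shared estimate of the spread. Gbp3 was higher by 0.75 ± 0.13 on the log2 scale (SE, limma, adjusted p = 0.0256), Gbp9 by 0.73 ± 0.09 (0.00685), Gbp2 by 0.71 ± 0.12 (0.0225) and Gbp5 by 0.56 ± 0.12 (0.0468). The differences of Gbp6, Gbp7, Gbp4 and Gbp8 were 0.50 ± 0.11, 0.33 ± 0.12, 0.13 ± 0.15 and 0.08 ± 0.11 and did not pass, with adjusted p of 0.0564, 0.25, 0.813 and 0.849. No member was called lower by limma, and at an unadjusted p under 0.05 there were 6 higher and 0 lower. At that threshold 1899 of the 11691 genes tested passed, in either direction. By edgeR on the recovered reads 4 members were also called, with Gbp6 (adjusted p = 0.0412) in and Gbp5 (0.0508) out. Over all genes 2.71% were called higher and 1.10% lower, against 4 of 8 members higher. Of 7 macrophage markers 1 was called higher (Fcgr1, 0.60) and 1 lower (Csf1r, -0.37), and their part was not tested.

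With the replicate number as a block, Gbp6 and Gbp7 also passed (adjusted p = 0.00312 and 1.7e-05), which gave 6 of 8 higher against 18.6% of all genes. The count of 4 depended on the libraries used. It fell to 0 without Mir182ΔM/ΔM basal replicate 1, without replicate 2 of that group or without WT basal replicate 2, to 2 without WT basal replicate 1 and to 1 without either Mir182ΔM/ΔM RANKL library, and it was 0 in a fit of the 4 basal libraries alone. Gbp5 was also lost without a filter on low values (adjusted p = 0.0887) and with quantile scaling (0.0779), and Gbp6 was called with a pseudocount of 0.1 (0.0285). Leaving out both WT RANKL libraries kept the count at 4 and gave Gbp9 0.73 ± 0.08 (adjusted p = 0.0108). The pairs of Mir182ΔM/ΔM and WT basal libraries overlapped in Gbp8 and not in the other members. The share of all genes without such overlap was not counted, so this is no result about the members. Gbp2b moved the other way, as given above, and its part in the values of its neighbours was not tested; 2.07% of the words of Gbp2 recur in it.

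RANKL raised GBP RNA in WT cells, except Gbp2. Gbp8 rose by 2.39 ± 0.11 on the log2 scale (SE, limma, adjusted p = 2.4e-06) and Gbp4 by 2.32 ± 0.15, followed by Gbp9 at 1.09 ± 0.09, Gbp7 at 0.97 ± 0.12, Gbp3 at 0.93 ± 0.13, Gbp5 at 0.59 ± 0.12 and Gbp6 at 0.49 ± 0.11. Gbp2 fell by 0.40 (SE 0.12, adjusted p = 0.0199). Of all genes, 40.6% were called higher and 22.0% lower, so 7 of 8 higher stands against a large background; with TMM scaling the calls over all genes were 3369 higher and 3562 lower in place of 4741 and 2571, with a shift of the median by -0.19. Quantile scaling left Gbp5 at 0.29 (adjusted p = 0.0847) and Gbp6 at 0.05 (0.734). Gbp2 was not called without WT RANKL replicate 1 (adjusted p = 0.0823), WT RANKL replicate 2 (0.0534) or WT basal replicate 1 (0.106), or with the 4 WT libraries alone (0.0508). These values also rest on the WT RANKL libraries. Osteoclast markers were called higher in 8 of 8 and neutrophil markers lower in 6 of 6 tested. Neutrophil sums were 79.3 to 87.1 CPM in WT basal and 19.0 to 19.3 in WT RANKL. Macrophage markers were called lower in 6 of 7, and Lyz2 was the 1 called higher. The part of these lists was not tested.

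In Mir182ΔM/ΔM cells RANKL raised all 8 members, in a comparison that sets no WT library against them, though the fit shares its estimate of the spread. Gbp6 rose by 3.51 ± 0.11 (SE, limma, adjusted p = 6.3e-07), Gbp4 by 2.81 ± 0.15, Gbp3 by 2.66 ± 0.13, Gbp5 by 2.59 ± 0.12, Gbp2 by 2.50 ± 0.12, Gbp9 by 2.13 ± 0.09, Gbp8 by 1.85 ± 0.11 and Gbp7 by 1.67 ± 0.12. Each adjusted p was 3e-05 or less. The background was 30.4% of all genes higher and 26.4% lower, and the median over all genes was 0.05 against 2.54 for the members. In the same contrast 7 of 8 osteoclast markers were called higher (median 4.52) and 6 of 6 neutrophil markers tested lower (median -2.97). The neutrophil markers summed to 95.3 to 100.7 CPM in Mir182ΔM/ΔM basal and 5.59 to 5.81 in Mir182ΔM/ΔM RANKL. Macrophage markers were called lower in 4 of 7 and higher in 0. The part of any of these lists in the GBP rise was not tested. All 8 calls were kept under each alternative, among them the fit without both WT RANKL libraries, where Gbp6 rose by 3.51 ± 0.11 (adjusted p = 3.89e-06); Gbp4 and Gbp8 could not be tested where a mean of at least 5 CPM was required.

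Whether the response to RANKL differed between the genotypes was tested by the interaction of genotype and RANKL. The response was larger in Mir182ΔM/ΔM cells for 6 members and smaller for Gbp8, against 7.44% of all genes larger and 17.1% smaller. The differences were 3.02 ± 0.15 for Gbp6 (SE, limma, adjusted p = 4.3e-05), 2.90 ± 0.16 for Gbp2 (7.1e-05), 1.99 ± 0.16 for Gbp5, 1.73 ± 0.18 for Gbp3, 1.04 ± 0.12 for Gbp9, 0.70 ± 0.17 for Gbp7 (0.0263) and -0.54 ± 0.15 for Gbp8 (0.0415). Gbp4, at 0.49 ± 0.22, did not pass (adjusted p = 0.152), and it passed with the replicate block (0.0304). TMM scaling moved the median of all genes by 0.16 and the calls over all genes from 870 larger and 2005 smaller to 1239 and 1274, and Gbp8 was then not called (-0.40, adjusted p = 0.125). Quantile scaling called Gbp4 (0.79, adjusted p = 0.0485) and not Gbp8 (0.297), and Gbp8 was also not called with no filter (0.0671), a pseudocount of 0.1 (0.106) or edgeR on the recovered reads (0.244).

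The interaction calls of Gbp4, Gbp7 and Gbp8 depended on 1 library. Gbp7 was not called without Mir182ΔM/ΔM RANKL replicate 1 (adjusted p = 0.0911) or 2 (0.0517), Mir182ΔM/ΔM basal replicate 2 (0.0855), WT RANKL replicate 2 (0.0871) or WT basal replicate 1 (0.0702). Gbp8 kept its call only without WT basal replicate 2, and its adjusted p was 0.0715 to 0.13 without any other library. Gbp4 was called without WT RANKL replicate 1 (0.73, adjusted p = 0.0305). Gbp2, Gbp3, Gbp5, Gbp6 and Gbp9 kept their calls under each alternative tried. All of these values rest on the WT RANKL libraries, and the part of their different Lyz2 and Ifi202b levels was not tested.

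The transgene comparison asked whether more miR-182 moved GBP RNA the other way in basal cells. No member was called, by edgeR's quasi-likelihood test or by DESeq2. By edgeR none had an unadjusted p under 0.05, against 863 of all genes tested. Of the 12081 genes tested 0.0993% were called higher and 0.157% lower, so few calls were to be had for any gene. Gbp4 and Gbp6 had too few reads to be tested. The log2 fold changes of Mir182mTg against Control were -0.32 ± 0.22 for Gbp5 (SE, edgeR, adjusted p = 1), -0.22 ± 0.13 for Gbp3 (0.948), -0.16 ± 0.18 for Gbp9, -0.11 ± 0.16 for Gbp7, -0.07 ± 0.17 for Gbp2 and 0.03 ± 0.38 for Gbp8. With the replicate block 6.94% of all genes were called higher and 8.15% lower, and still no member, with Gbp3 nearest at an adjusted p of 0.223. Neutrophil markers summed to 48.4 to 50.1 CPM in Control and 102.4 to 112.6 in Mir182mTg. Of 6 tested, 0 were called without the block and 6 were called higher with it. With the block 3 of 6 osteoclast markers tested were also higher and 0 lower. Of 7 macrophage markers 2 were higher and 1 lower with the block. The part of any of these lists was not tested.

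Summed over the 8 genes, GBP RNA was at 79.8 ± 6.89 CPM in WT basal (SD, n = 2), 150.8 ± 14.1 in WT RANKL, 121.3 ± 7.37 in Mir182ΔM/ΔM basal, 611.6 ± 28.6 in Mir182ΔM/ΔM RANKL, 34.4 ± 3.32 in Control and 31.6 ± 0.432 in Mir182mTg. The make-up of this sum also differed between conditions when each gene was taken per kilobase. Gbp2 made up 13.1% of it in WT RANKL (12.1% and 14.2% in the libraries) and between 31.4% and 36.2% on average in the other 5 conditions. Gbp7 was at 27.2% in WT RANKL and 11.8% in Mir182ΔM/ΔM RANKL, and Gbp8 at 8.44% and 1.23%. In every condition Gbp2, Gbp3, Gbp7 and Gbp9 held most of the RNA, and Gbp4 and Gbp6 never held more than 3.22% in a library. After RANKL the mean levels of Mir182ΔM/ΔM cells ran from 67.7 ± 3.28 CPM per kb for Gbp2 through 36.4 ± 2.44 for Gbp3, 34.9 ± 0.704 for Gbp9, 22.0 ± 1.43 for Gbp7 and 17.0 ± 0.738 for Gbp5 to 4.95 ± 0.196 for Gbp6, 2.30 ± 0.0671 for Gbp8 and 1.84 ± 0.04998 for Gbp4. Gbp3 and Gbp9 overlapped in that order, and no other neighbours did.

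**Figure D4:**
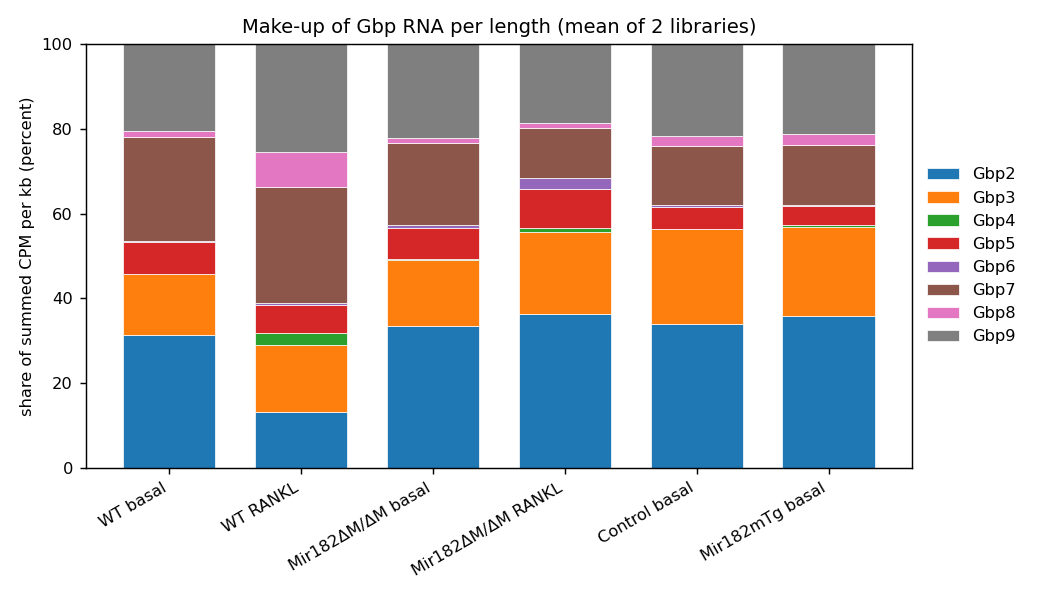
Stacked share of each gene in the summed CPM per kb of the 8 genes (y axis, percent, mean of 2 libraries) in the 6 conditions. The Gbp2 segment shrinks to 13.1% in WT RANKL, where those of Gbp7 and Gbp8 are widest at 27.2% and 8.44%.

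Interferon signaling genes, the receptors and transcription factors upstream of GBP promoters, were read as a list of 18. Ifng was at 0 in each library and Ifnb1 had at most 5 reads, so neither was tested. In Mir182ΔM/ΔM RANKL against WT RANKL 8 of 16 tested were higher and 2 lower, among them Irf7 (4.74), Stat2 (2.32) and Batf2 (1.07 on the log2 scale), with a list median of 0.29 against -0.15 over all genes and calls for 14.3% higher and 30.9% lower of all genes. At baseline 3 were higher, among them Irf7 (1.38) and Stat2 (0.69), and Ifngr1 lower (-0.34), against 2.71% and 1.10% of all genes, and with the replicate block 5 higher and 4 lower, against 18.6% and 12.7%. RANKL in WT cells gave 3 higher and 6 lower, with Irf8 at -1.59, Stat2 at -1.31 and Ifnar2 at -0.61, against 40.6% and 22.0% of all genes. RANKL in Mir182ΔM/ΔM cells gave 11 higher and 2 lower, with Irf7 at 3.12 higher and Irf8 at -2.30 lower, against 30.4% and 26.4% of all genes. The interaction was called for 9, among them Irf7 (3.36) and Stat2 (1.64), 8 of them with a larger response in Mir182ΔM/ΔM cells, against 7.44% larger and 17.1% smaller of all genes.

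The immunity-related GTPases (IRGs), a second interferon-induced GTPase family that acts with GBPs on pathogen vacuoles, were higher in Mir182ΔM/ΔM cells too. With RANKL in WT cells 0 of 8 were called higher, against 40.6% of all genes. All 8 IRGs were higher in Mir182ΔM/ΔM RANKL than in WT RANKL, among them Iigp1 (4.57), Tgtp2 (3.67) and Gm12250 (3.08), against 14.3% of all genes. At baseline 5 of 8 were higher, against 2.71%, and with the block 7 of 8, against 18.6%. RANKL lowered 5 of 8 in WT cells, with Iigp1 at -0.72 and Gm12250 at -0.66, against 22.0% of all genes (7 of 8 and 29% with the block). It raised 8 of 8 in Mir182ΔM/ΔM cells, with Iigp1 at 2.19 and Tgtp2 at 2.16, against 30.4%. By the interaction the response was larger in Mir182ΔM/ΔM cells for 7 of 8, against 7.44% of all genes. With the block it was larger for 8 of 8, against 16.1%. The comparisons with WT RANKL rest on its 2 libraries, and the part of their Lyz2 and Ifi202b levels was not tested. Tgtp1 and Tgtp2 are near-identical copies whose reads can be split, and Tgtp1 differed between replicates (1.12 and 6.73 CPM in Mir182ΔM/ΔM RANKL). Among the other GBP genes, Gbp2b was the 1 of 4 listed with enough reads, and it was lower in Mir182ΔM/ΔM cells with log2 fold changes of -2.83 at baseline and -2.49 after RANKL (adjusted p = 0.00118 and 0.00011, limma). Gbp10 and Gbp11 had at most 2 reads and Gvin1 was at 0.

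The other 3 lists were read against the shares of all genes called. Of the 10 genes for conjugation of ATG8 proteins, which GBPs and IRGs need to reach vacuoles, 2 were higher and 2 lower in Mir182ΔM/ΔM RANKL than in WT RANKL (Map1lc3b -0.61, Atg5 -0.44, Atg12 0.44, Gabarapl1 0.20), against 14.3% and 30.9% of all genes, and 3 higher and 6 lower with the replicate block, against 23.4% and 49.7%. These shares are near the background. RANKL lowered 5 of these genes in each genotype, against 22.0% of all genes in WT and 26.4% in Mir182ΔM/ΔM cells. Among them was Gabarapl1, with -1.51 in WT and -0.84 in Mir182ΔM/ΔM cells. RANKL raised Atg5 in WT cells (0.28), against 40.6% of all genes. The block gave 1 higher and 7 lower in Mir182ΔM/ΔM cells, against 42.7% and 36.3% of all genes. At baseline Gabarapl1 was lower (-0.46), against 1.10% of all genes, with 4 lower under the block, against 12.7%. Of 8 inflammasome and pyroptosis genes tested, Il18 (1.42), Casp1 (0.34) and Casp8 (0.21) were higher in Mir182ΔM/ΔM RANKL, against 14.3% of all genes. Casp4, the caspase that senses bacterial lipopolysaccharide, was lower there (-0.62), against 30.9%. At baseline Casp4 was higher (1.14), against 2.71%, with 2 higher under the block, against 18.6%. The interaction was called for Il18 (1.29) and Casp4 (-1.76), against 7.44% larger and 17.1% smaller of all genes. Under the block it was called for 4 larger and 2 smaller, against 16.1% and 42.8% of all genes. RANKL in WT cells raised 3 of these 8 genes and lowered 2, near the 40.6% and 22.0% of all genes. Casp4 was at 3.17, Gsdmd, the pore protein of pyroptosis, at 2.33, Nlrp3, an inflammasome sensor, at -1.22 and Il18 at -0.70. In Mir182ΔM/ΔM cells RANKL raised 4 and lowered 1, against 30.4% and 26.4% of all genes. Gsdmd was at 2.16, Casp4 at 1.41, Nlrp3 at -0.93 and Il18 at 0.59. Of 5 genes that attach prenyl lipids to proteins or process their ends, 1 was higher and 1 lower in Mir182ΔM/ΔM RANKL than WT RANKL. These stand against 14.3% and 30.9% of all genes. The higher gene was Fntb (0.53), the subunit specific to farnesyltransferase. The lower gene was Fnta (-0.35), the subunit that farnesyltransferase shares with the type I enzyme that attaches a longer prenyl lipid. None was called at baseline (1 lower under the block, against 12.7%) or in the RANKL response of Mir182ΔM/ΔM cells. Under the block that response had 2 higher and 1 lower, against 42.7% and 36.3%. RANKL lowered Fntb in WT cells (-0.24), against 22.0%, with 1 higher and 2 lower under the block, against 52.8% and 29%. In the transgene comparison none of these lists had a call by edgeR without a block. With the block 2 interferon signaling genes were lower, against 8.15% of all genes. The ATG8 and inflammasome lists had 1 gene each higher, against 6.94%.

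The genes whose profile was most like the mean profile of the 8 members over the 12 libraries, out of 9802 with a mean of at least 5 CPM, were Ddx58, a sensor of viral RNA (root mean square difference of 0.278 in centred log2(CPM + 1)), Ube2l6, a conjugating enzyme for the ubiquitin-like protein ISG15 (0.355), Cass4 (0.388), Pkd1l2 (0.408) and Trex1, a DNA exonuclease (0.423). The median over those genes was 1.30. Ddx58 was at 661 and 597 CPM in Mir182ΔM/ΔM RANKL and at 178 and 157 in WT RANKL. Among the members themselves Gbp9 (0.202) and Gbp3 (0.209) lay nearest to the mean profile and Gbp8 (0.766) farthest.

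Since the genotypes differ in miR-182, the sequence of that miRNA was set against the 3′ untranslated regions of the members. The mature mmu-miR-182-5p (RefSeq, GRCm38.p6, chr6:30165962-30165986, minus strand) is shown with its seed, bases 2 to 8, in capitals.
mmu-miR-182-5p: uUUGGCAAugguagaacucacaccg
Its seed pairs with TTGCCAA, or with TGCCAAA where an A follows. Neither run of letters occurs in the longest annotated 3′ untranslated region (GENCODE vM21) of any of the 8 members, which are 515 to 3575 bases long. Of 21007 coding genes 17.5% have a match, and of the 12240 genes with a region between those lengths 20.1% have one. That no match was found says only that these letters are absent from these regions.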

How the data were processed

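The methods describe poly-A+ selection for the TruSeq libraries, while the labels give polyA RNA for replicate 1 and total RNA for replicate 2. The sources used here do not settle which holds for replicate 2. The submitters' processing notes name mm10, with TopHat and Cufflinks for replicate 1 and HISAT2, HTSeq and edgeR for replicate 2, with versions not given in the sources used here. For the 8 loss of function libraries the authors deposited CPM, and for the 4 gain of function libraries raw counts per gene; the deposited files of replicate 1 also hold RPKM, used only for gene lengths. Gain of function counts were divided by their total to give CPM. Of 24421 gene names 27 had turned into dates, none of them a member.

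Loss of function values were tested with limma 3.58.1 (empirical Bayes, trend option) after log2(CPM + 1), for 11691 genes with at least 1 CPM in 2 of 8 samples, in 1 fit of 4 groups; gain of function counts with edgeR 4.0.16 (TMM, filterByExpr, quasi-likelihood F test; the SE is the absolute log2 fold change over the square root of F). P-values were adjusted by Benjamini-Hochberg over all genes of a contrast, with a threshold of 0.05. Each of the 8 members passed the filter of the loss of function fit, and none through Mir182ΔM/ΔM RANKL alone. The CPM steps gave whole reads for 100% of values (tolerance 0.01 reads); edgeR on these reads called 2481 genes higher and 2448 lower in Mir182ΔM/ΔM RANKL against WT RANKL, with TMM. This alternative, with and without a block, was added after the data were seen. On simulated counts with 200 genes changed by a log2 of 1, the fits recovered 94.5% of them in either experiment, with 3.57% and 4.06% of calls false. The simulation had no replicate effect and the same spread setting for every gene, and changed only genes with enough reads. These rates therefore check the code and need not hold for the deposited libraries.

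Replicate numbers pair the samples: the log2 ratios of replicate 2 to 1 over genes correlated between any 2 of the 6 conditions at r = 0.686 to 0.754 (15 pairs; genes are not independent), and the labels give polyA RNA for replicate 1 and total RNA for replicate 2. Rn45s, the ribosomal RNA precursor, was at 742 to 1176 CPM in replicate 1 and 9778 to 21273 in replicate 2. Replicates of a condition differed by more than sampling noise.

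Members and gene lists were chosen with earlier results of these data known. All 8 members are named; of each list, counts and at most 4 called genes with the largest absolute change in a comparison (1 gene of the interferon signaling list, counted in it, is not reported here by name); Ifng, Ifnb1, Tgtp1, Gbp10, Gbp11 and Gvin1 are named outside that rule, after their values were seen. The 5 genes nearest in profile were named by root mean square difference. DESeq2 (1.42.0) and other scalings, filters, pseudocounts, left-out libraries and blocks were the alternatives.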

Additional observations from a re-analysis of the deposited data

Results flagged for a closer look

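The response to RANKL differed between Mir182ΔM/ΔM and WT cells by the interaction term for 7 of the 8 genes (limma, adjusted p under 0.05 over 11691 genes), on 2 libraries a condition, against 7.44% of all genes with a larger and 17.1% with a smaller response. Gbp7 was not called when any of 5 single libraries was left out and Gbp8 when any of 7 was, and Gbp8 was not called with TMM or quantile scaling, no filter, a pseudocount of 0.1 or edgeR on the recovered reads. On the log2(CPM + 1) scale the response of Mir182ΔM/ΔM cells exceeded that of WT cells by 3.02 in Gbp6, 2.90 in Gbp2, 1.99 in Gbp5, 1.73 in Gbp3, 1.04 in Gbp9 and 0.70 in Gbp7 (0.695), and it was smaller in Gbp8 (-0.54). In each of these genes the differences taken within replicate 1 and within replicate 2 had the same sign, for example 3.03 and 2.76 in Gbp2 and -0.57 and -0.51 in Gbp8. The genes were called on these same libraries, so this agreement is no separate support. The WT response rests on libraries with 4117 and 4288 CPM of Lyz2, and WT basal libraries had 44.0 and 39.8 CPM; the part of this difference in the responses was not tested. Beside them, Mir182ΔM/ΔM cells had 34.6 and 31.2 CPM of Lyz2 in the basal libraries and 24.0 and 22.5 after RANKL. No group had the 4 samples that a search for outlying libraries needs.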

How the results depend on the processing

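With 2 libraries a condition, the counts of called members were 0 to 4 over the left-out libraries for Mir182ΔM/ΔM basal against WT basal (4 as reported) and 0 in a fit of its 4 samples alone, where fewer samples give the spread. Over left-out libraries the counts were 6 to 8 for Mir182ΔM/ΔM RANKL against WT RANKL, 7 to 8 for WT RANKL against WT basal, 8 to 8 for Mir182ΔM/ΔM RANKL against basal, 5 to 7 for the interaction and 0 to 0 for Mir182mTg against Control. The replicate block gave 8, 6, 8, 8, 8 and 0 members in the order after RANKL, basal, WT response, Mir182ΔM/ΔM response, interaction and transgene, and changed the calls of Gbp6 and Gbp7 at baseline and Gbp4 in the interaction and no other member. Over left-out libraries the sign turned only for differences that were not called, and the cause was not tested: Gbp8 at baseline was -0.022 to 0.175, and in Mir182mTg against Control Gbp2 was -0.266 to 0.169, Gbp7 -0.273 to 0.077, Gbp8 -0.380 to 0.316 and Gbp9 -0.404 to 0.059.

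Counts over all genes moved by over 1.5 times with the replicate block: from 5275 to 8555 after RANKL, 446 to 3651 at baseline, 2875 to 6889 for the interaction and 31 to 1822 for the transgene, where DESeq2 gave 129, no filter 141 and left-out libraries 55 to 166. At baseline left-out libraries gave 97 to 293, the 4 samples alone 54, and leaving out both WT RANKL libraries 286. TMM and edgeR with the block gave 8109 and 8435 after RANKL, 3649 and 3695 at baseline, and 6064 and 5936 for the interaction. Depth limits Gbp4, Gbp6 and Gbp8 in the basal libraries, with at most 10 reads of Gbp4, 29 of Gbp6 and 25 of Gbp8.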
